A study of Bos taurus with 12 samples.

Results

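The genes described here are DTNA, which encodes alpha-dystrobrevin, and 8 other genes of the dystrophin complex: DTNB, DMD, UTRN, SGCA, SGCB, SGCD, SGCE and SNTB1. They were selected by gene symbol with the values of old females (OF) against young females (YF) on these same arrays in view, DTNA for its high level in OF, so OF against YF values of the 9 genes are given below as a description. Calls in that contrast by the test of the study are printed only beside their share over all transcripts, and nothing is read from them. The 9 genes are represented by 11 of the 26323 transcripts measured, with 2 transcripts each for DTNA and SGCA and 1 for every other gene, and by 22 probe sequences.

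Endometrium was biopsied on Day 15 of a synchronised estrous cycle, and RNA of every animal, labelled with Cy-3, was put on a separate Agilent array designed for bovine transcripts. The 4 OF were 13 to 14 years old and nulliparous, and the 4 YF were 4 to 5 years old and had calved 1 time. OF and YF were Holstein clones of a single donor cow, kept under the same feeding and housing, and only intercaruncular tissue of the uterine horn beside the corpus luteum was used for them. Age and parity cannot be told apart in this design, and a line from 1 donor shows nothing of genetic variation between cows.

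A further 4 arrays came from animals labelled contemporary cows, whose age, breed, parity and clonal origin the labels do not give. The labels state that the study left out contemporary cow 1111 for a phenotype unlike that of its group, so 3 contemporary cows and 11 of the 12 arrays were used. The contemporary values did not enter the selection of the genes, but the YF and OF values did, and the comparisons of contemporary cows with YF and with OF share those groups. The p values for contemporary cows, from linear models in limma, thus rest in part on values that selected the genes. The arrays lay on 2 slides: 2 YF (1070 and 1072), OF 0245 and contemporary cow 1111 were on slide 1, and all other animals were on slide 2. On each array between 71.6% and 74.9% of probes were well above background and 0 were saturated, and the number of arrays limits the precision of every value. OF 2258 stood apart over the transcripts detected on all arrays: on their first principal component, with 40.8% of the variance, it lay at -110 and the other 10 animals used between -29.9 and 34.2. Results with OF are therefore also given without it where it moved them.

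The dystrophin complex ties the actin cytoskeleton to laminin in the basement membrane. Dystrophin, or utrophin in its place, binds actin on the inner side and dystroglycan at the membrane, the sarcoglycans and sarcospan form a membrane unit beside dystroglycan, and dystrobrevins and syntrophins bind dystrophin from the cytoplasm and carry signalling proteins. The complex is best known from skeletal and heart muscle, but smooth muscle cells carry it too, and in the uterus the endometrium lies directly on a smooth muscle wall, the myometrium.

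DTNA was read by 4 different probe sequences, shown here because the results turn on whether independent stretches of the same gene give the same pattern. The array annotation places DTNA-201 (ENSBTAT00000061204) at chr24:22445691-22767026 and DTNA-202 (ENSBTAT00000048673) at chr24:22521988-22766995 of the assembly UMD3.1. Each sequence is written 5′ to 3′.

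DTNA-201 probe 1: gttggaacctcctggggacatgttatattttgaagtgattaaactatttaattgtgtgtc
DTNA-201 probe 2: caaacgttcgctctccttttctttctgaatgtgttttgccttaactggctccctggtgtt
DTNA-202 probe 1: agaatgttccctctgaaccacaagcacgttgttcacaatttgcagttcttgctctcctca
DTNA-202 probe 2: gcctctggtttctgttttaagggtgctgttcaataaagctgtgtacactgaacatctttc

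The 4 sequences share no run longer than 8 bases with each other, and none of them stood on the array for any other transcript. Both DTNA-201 sequences were spotted under 2 probe names each, and the repeat spots of a sequence differed by at most 0.73 on the log2 scale on any array.

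The level of a transcript is the log2 intensity averaged over its probes, minus the 75th percentile of the array, so a level of 0 equals that percentile. DTNA-201 stood at -4.55 in YF 1069, -5.16 in YF 1070, -3.40 in YF 1072 and -4.78 in YF 1127. In OF it stood at -3.75 in 0233, -1.40 in 0234, -3.68 in 0245 and 0.37 in 2258. In contemporary cows it stood at -4.08 in 1068, -3.87 in 1128 and -5.19 in 1129. All DTNA-201 probes were well above background on all 12 arrays. OF 2258 and OF 0234 lay far above every other animal, whereas OF 0233 and OF 0245 lay inside the range of YF, just under YF 1072, so OF and YF overlapped. The contemporary cows lay within the range of YF apart from 1129, which was marginally the lowest of all animals.

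**Figure D1:**
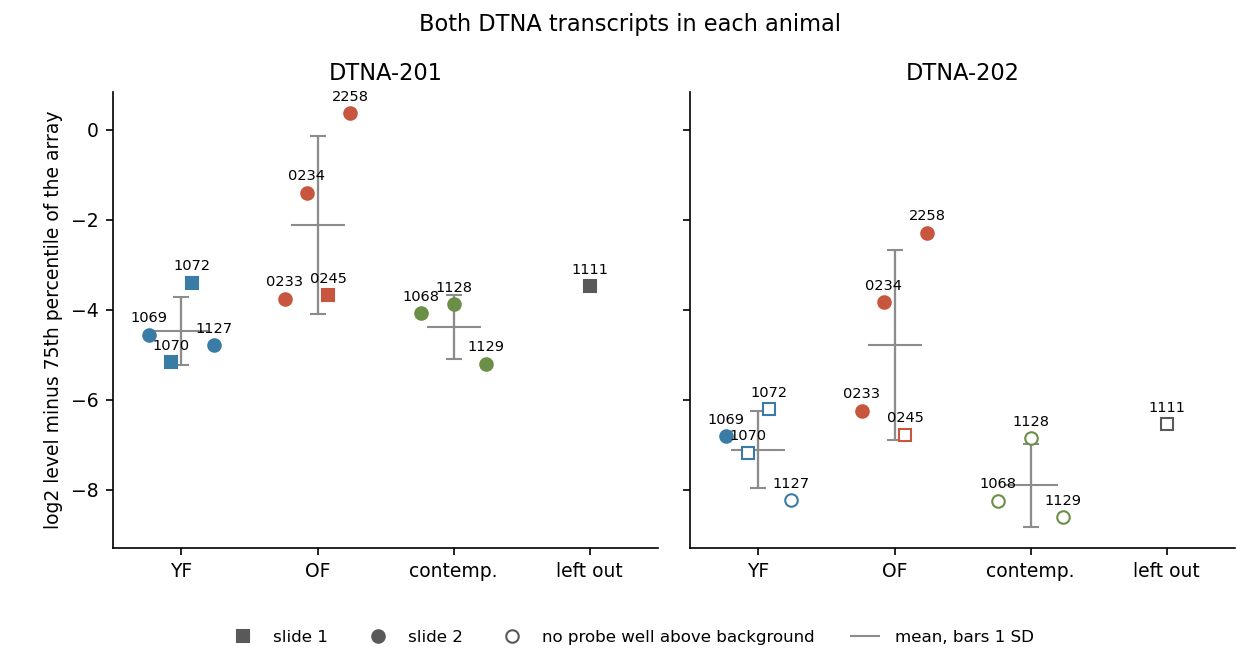
Level of DTNA-201 and DTNA-202 in each animal (log2 intensity minus the 75th percentile of the array), by group, with squares for slide 1, circles for slide 2, open symbols where no probe of the transcript was well above background, and grey lines for the mean and 1 SD of the animals used. OF 2258 and OF 0234 stand above all other animals in both panels, with DTNA-201 at 0.37 and -1.40.

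The mean DTNA-201 level was -2.11 ± 1.98 in OF (SD, n = 4) and -4.47 ± 0.76 in YF (SD, n = 4). OF exceeded YF by 2.36 on the log2 scale, a 5.14-fold difference of geometric means, with 2 of 4 OF above all YF. The spread within OF was thus of the size of the difference. Blocking on slide gave 2.19, and the slides apart gave 0.60 within slide 1 (OF 0245 against 2 YF) and 3.08 within slide 2 (3 OF against 2 YF). Without OF 2258 it was 1.53. In a biopsy of mixed cells, more cells of a type and more RNA per cell cannot be told apart.

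DTNA-202 was dim. At least 1 of its probes was well above background in OF 0233, OF 0234, OF 2258 and YF 1069, and in 0 of the 3 contemporary cows. OF 0233 had -6.24, 0234 had -3.83, 0245 had -6.77 and 2258 had -2.29. In YF it was -6.81 in 1069, -7.17 in 1070, -6.21 in 1072 and -8.23 in 1127. The order of the OF followed that of DTNA-201 at the top, with 2258 and 0234 above all YF and the other OF within their range. The mean was -4.78 ± 2.10 in OF (SD, n = 4). Because only 1 YF array gave a signal well above background, no difference between OF and YF is given for DTNA-202.

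The plot of single DTNA probes sets each animal against the YF mean of the same probe, since levels of different probes are not comparable. OF 2258 ranked highest and OF 0234 next on each of the 4 sequences. For DTNA-201, the OF mean exceeded the YF mean by 2.91 with probe 1 and by 1.81 with probe 2, with 3 of 4 OF above all YF on both, the third being 0245 on probe 1 and 0233 on probe 2. For DTNA-202, probe 1 was not well above background on any YF or contemporary array, and probe 2 was so on 3 OF arrays, 1 YF array and 0 contemporary arrays. The 4 sequences thus gave the same order of animals at the top.

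**Figure D2:**
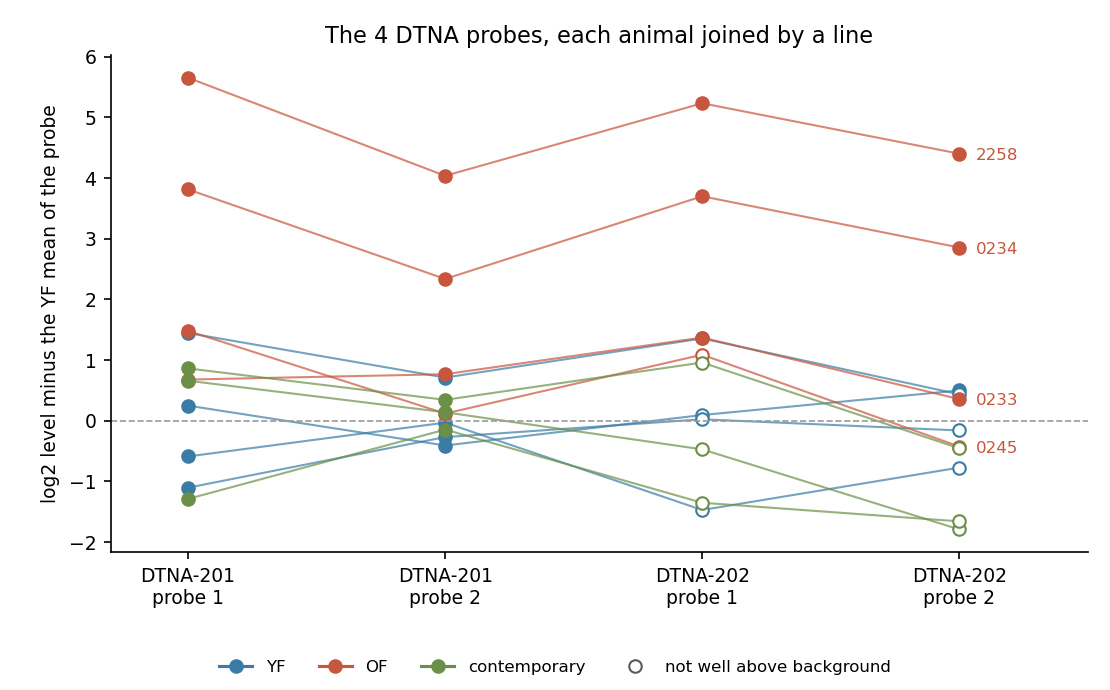
Level of the 4 DTNA probe sequences in each of the 11 animals used (log2, minus the mean of the 4 YF on the same probe), with a line per animal and open circles where the probe was not well above background. OF 2258 and OF 0234 stand apart from the other animals on every probe, and the other OF lie close to the YF and contemporary cows.

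Fold change rank ordering statistics (FCROS), the test of the study, ranks all pairwise ratios between the groups. Over all transcripts it called 1300 of 26323 between OF and YF, 4.94%, and both DTNA transcripts, 2 of the 11 described here, were among those higher in OF. This contrast selected the genes, and nothing is read from that count. Limma was run on transcripts that at least 1 probe detected above background throughout OF or throughout YF, and it called 0 of 19755 at an adjusted p of 0.05, 0%, against 478 at an unadjusted p under 0.05.

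The contemporary cows allow the DTNA level of YF and of OF to be set against animals that played no role in its selection. Between contemporary cows and YF, limma called 0 of 19993 transcripts, 0%, with 606 at an unadjusted p under 0.05, while FCROS called 1113 of 26323, 4.23%. Of the 11 transcripts described here, 9 passed the limma filter, 0 of these were called, 0 had an unadjusted p under 0.05, and FCROS called 1 of the 11, DTNA-202, whose contemporary values were not well above background. DTNA-201 averaged -4.38 ± 0.71 in contemporary cows (SD, n = 3), 0.09 above YF with a standard error of 0.47 (limma adjusted p above 0.99). This difference was within the spread of both groups, and it ran from -0.16 without contemporary cow 1128 to 0.50 without 1129. Blocking on slide gave 0.29, which equals the value within slide 2, where all contemporary cows used lay.

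Between contemporary cows and OF, limma called 0 of 19914 transcripts, 0%, with 911 at an unadjusted p under 0.05, while FCROS called 1422 of 26323, 5.40%. Limma called 0 of the same 9 transcripts, of which 1, DMD-201, had an unadjusted p under 0.05, and FCROS called DTNA-201 and DTNA-202, 2 of the 11, both lower in contemporary cows. DTNA was selected for its high level in these OF, which favours a lower level in any other group, so nothing is read from the calls against OF. The DTNA-201 level of contemporary cows differed from that of OF by -2.27, and 3 of 3 lay below all OF. Blocking on slide gave -2.79, and leaving out OF 2258 gave -1.44. The OF differed among themselves by as much as 4.12. The mean DTNA-202 level of OF was at least 3.54-fold that of contemporary cows, where the transcript was not well above background. For each contemporary array this took the higher of its own signal and the lowest signal of any probe well above background. The OF mean rests on 2258 at -2.29 and 0234 at -3.83, with 0233 at -6.24 and 0245 at -6.77. The bound holds for the normalisation used here and is 1.99-fold without OF 2258 and 5.61-fold without OF 0245, whose own DTNA-202 signal was not well above background. The difference was not tested in limma, because DTNA-202 was not well above background on every array of either group.

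In contemporary cow 1111, left out of these comparisons, DTNA-201 stood at -3.47, under YF 1072.

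DTNB encodes beta-dystrobrevin, the form known mainly from non-muscle tissues. DTNB-201 (chr11:73724474-73935363) stood at 2.48 in YF 1069, 2.67 in YF 1070, 2.15 in YF 1072 and 2.63 in YF 1127. OF 0233 had 2.21, 0234 had 2.37, 0245 had 2.57 and 2258 had 1.19. In contemporary cows it was 2.04 in 1068, 1.96 in 1128 and 2.31 in 1129. OF 2258, highest for DTNA, was the lowest of all animals for DTNB, and the other OF lay within the YF range. The mean was 2.08 ± 0.62 in OF (SD, n = 4) and 2.48 ± 0.24 in YF (SD, n = 4), a difference of -0.40 that became -0.10 without OF 2258. Blocking on slide gave -0.35, with 0.16 within slide 1 and -0.63 within slide 2. Contemporary cows averaged 2.10 ± 0.18 (SD, n = 3), which differed from YF by -0.38 (limma adjusted p above 0.99, 2 of 3 below all YF) and from OF by 0.02 (limma adjusted p 0.998), which became -0.28 without OF 2258.

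Dystrophin, encoded by DMD, is the actin-binding core of the complex, and its gene makes several products. The annotated transcript DMD-201 (chrX:117442266-117604200) spans 161935 bases. Which of these products its probes read, and whether that product binds actin, was not tested. Its level was -0.49 in YF 1069, 0.27 in YF 1070, 0.85 in YF 1072 and 0.61 in YF 1127. OF 0233 had 1.22, 0234 had 0.36, 0245 had 0.76 and 2258 had 0.52. The animals high for DTNA were not high for DMD: OF 0233 was the highest and OF 0234 and OF 2258 lay within the YF range. OF averaged 0.72 ± 0.38 (SD, n = 4) and YF 0.31 ± 0.59 (SD, n = 4), 0.41 higher in OF, of which 0.14 was left without YF 1069 and 0.24 without OF 0233. With slide as a blocking factor it was 0.48, with 0.20 within slide 1 and 0.64 within slide 2. With array weights it was 0.0044.

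DMD-201 was 0.34 in contemporary cow 1068, 0.15 in 1128 and -0.33 in 1129, so all 3 lay below all OF, though 1068 was close to OF 0234. The mean of 0.05 ± 0.35 (SD, n = 3) differed from OF by -0.66 with a standard error of 0.27 (limma adjusted p 0.912). A block for slide gave -0.65. From YF the contemporary mean differed by -0.25 (limma adjusted p above 0.99), a value that was -0.06 without contemporary cow 1129, -0.52 without YF 1069, and -0.0025 when blocked on slide.

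Utrophin is the close relative of dystrophin that takes its place in most non-muscle cells. UTRN-201 (chr9:82762003-83311756) varied least of the 11 transcripts, with all 11 animals between -3.63 and -3.16. OF averaged -3.38 ± 0.19 (SD, n = 4), YF -3.32 ± 0.12 (SD, n = 4) and contemporary cows -3.38 ± 0.23 (SD, n = 3). The difference between OF and YF was -0.06, less than the spread of either group, and 0.01 without OF 2258. Contemporary cows differed from YF by -0.06, or 0.07 without contemporary cow 1129, and from OF by 0.0016, or 0.13 without 1129 (limma adjusted p above 0.99 for both).

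**Figure D3:**
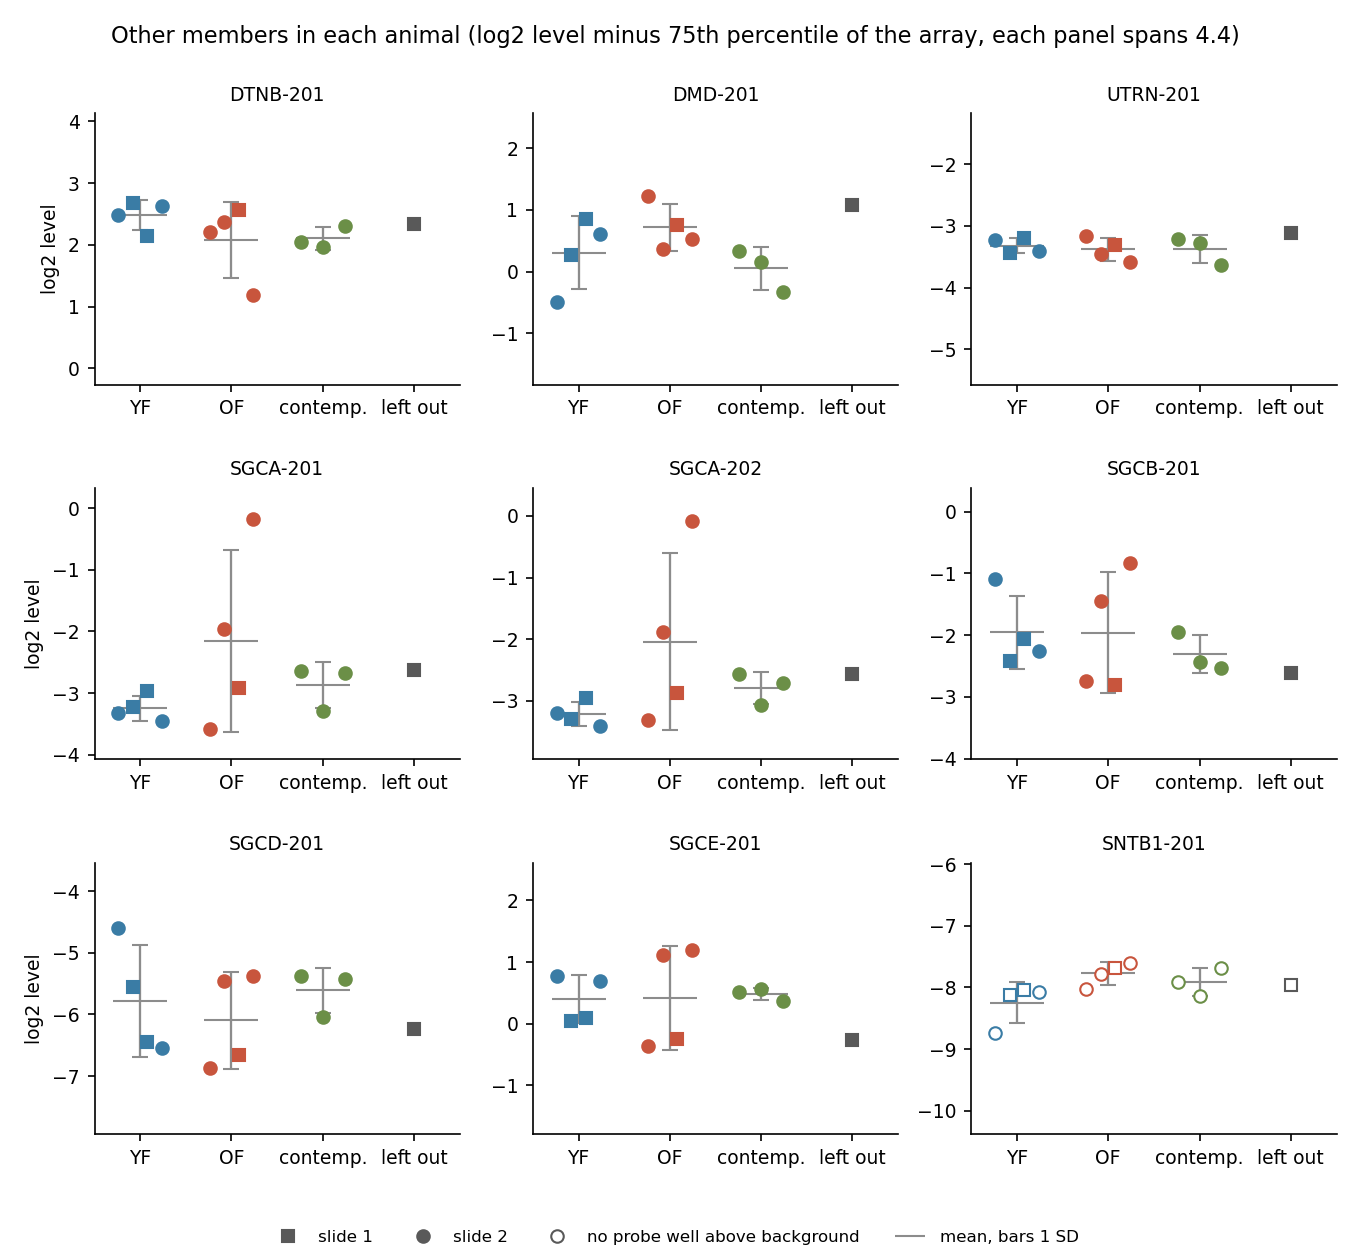
Level of the 9 other transcripts in each animal (log2 intensity minus the 75th percentile of the array, with the same span on each vertical axis), by group, with squares for slide 1, circles for slide 2, open symbols where no probe was well above background, and grey lines for the mean and 1 SD. SGCA rises in OF 2258 and OF 0234, DTNB is lowest in OF 2258, and UTRN stays between -3.63 and -3.16 in the 11 animals used.

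Alpha-sarcoglycan, encoded by SGCA, is the sarcoglycan regarded as particular to striated muscle. Its transcripts were read by probes that overlap in pairs, shown here because their values are then not independent. SGCA-201 (ENSBTAT00000005180) lies at chr19:37113477-37122359 and SGCA-202 (ENSBTAT00000043279) at chr19:37113482-37122446. Capitals mark the run of 55 bases that a probe of SGCA-201 shares with the probe of the same number of SGCA-202.

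SGCA-201 probe 1: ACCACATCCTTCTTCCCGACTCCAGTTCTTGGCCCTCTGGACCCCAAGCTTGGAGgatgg
SGCA-202 probe 1: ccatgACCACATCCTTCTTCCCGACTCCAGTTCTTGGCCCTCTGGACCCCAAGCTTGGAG
SGCA-201 probe 2: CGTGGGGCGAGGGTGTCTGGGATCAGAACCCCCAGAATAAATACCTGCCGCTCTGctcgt
SGCA-202 probe 2: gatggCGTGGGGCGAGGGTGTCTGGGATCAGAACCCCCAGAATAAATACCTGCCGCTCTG

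SGCA-202, the brighter transcript, stood at -3.19 in YF 1069, -3.30 in YF 1070, -2.95 in YF 1072 and -3.41 in YF 1127. OF 0233 had -3.31, 0234 had -1.89, 0245 had -2.88 and 2258 had -0.08. In contemporary cows it was -2.57 in 1068, -3.07 in 1128 and -2.71 in 1129. As for DTNA, OF 2258 and OF 0234 were the highest animals. OF 0245 lay marginally above the YF and OF 0233 among them, so the groups overlapped.

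SGCA-202 averaged -2.04 ± 1.43 in OF (SD, n = 4) and -3.21 ± 0.20 in YF (SD, n = 4), 1.17 higher in OF and 0.52 without OF 2258. Blocking on slide gave 1.08, with 0.24 within slide 1 and 1.54 within slide 2. SGCA-201 gave 1.09 in the same comparison and 0.43 without OF 2258. By probe the OF mean of SGCA-202 exceeded the YF mean by 0.85 with probe 1 and 1.49 with probe 2.

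Contemporary cows averaged -2.78 ± 0.26 (SD, n = 3) for SGCA-202, 0.43 above YF with a standard error of 0.19 (limma adjusted p above 0.99, 2 of 3 above all YF), and blocking on slide gave 0.52. Against OF their difference was -0.75 with a standard error of 0.72 (limma adjusted p 0.946), and -0.09 without OF 2258. Neither difference passed the threshold.

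Beta-sarcoglycan, delta-sarcoglycan and epsilon-sarcoglycan, the last being the relative of alpha-sarcoglycan found in many tissues, showed no common direction between the groups. SGCB-201 (chr6:69526335-69553387) ranged from -2.80 to -0.82 in OF and from -2.41 to -1.09 in YF, with OF 2258 and YF 1069 highest. Its means were both -1.96, and OF minus YF lay between -0.38 without OF 2258 and 0.29 without YF 1069, with -0.57 within slide 1 and -0.0009 within slide 2. SGCE-201 (chr4:11840470-11911742) separated the OF into pairs, with 2258 at 1.19 and 0234 at 1.11 above all YF, and 0233 at -0.36 and 0245 at -0.25 below all YF. The SGCE mean was 0.42 ± 0.84 in OF (SD, n = 4) and 0.40 ± 0.39 in YF (SD, n = 4), 0.02 apart, or 0.29 without OF 0233 and -0.23 without OF 2258. Within slide 1 and slide 2 SGCE gave -0.31 and -0.09.

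SGCD-201 (chr7:69585066-70027839) was dim, with 1 of its probe sequences well above background on all 11 arrays and the other on 3. It ranged from -6.87 to -5.38 in OF and from -6.54 to -4.60 in YF, and repeat spots of the dimmer sequence differed by up to 2.46. The OF minus YF difference was -0.31, from means of -6.09 and -5.79, and 0.09 without YF 1069, with -0.66 within slide 1 and -0.33 within slide 2. The brighter SGCD sequence alone gave 0.02. Contemporary cows differed from YF by -0.35 for SGCB, 0.17 for SGCD and 0.08 for SGCE, and from OF by -0.35, 0.48 and 0.06 in the same order. The limma adjusted p values of these 6 differences were all at or above 0.940. Without YF 1069 the SGCB difference from YF was -0.06 and that of SGCD 0.57, and without OF 2258 the SGCB difference from OF was 0.03 and that of SGCE 0.31. Without YF 1069 SGCE differed from YF by 0.20, and without OF 0233 SGCD differed from OF by 0.22. Blocked on slide, the differences from YF were -0.63, -0.04 and -0.25, and those from OF -0.63, 0.29 and -0.17, so that SGCE had the opposite sign in both and SGCD in the difference from YF.

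SNTB1 encodes beta-1-syntrophin, an adapter that binds dystrophin and dystrobrevin. Its probes (chr14:84253919-84504093) were not well above background on any of the 12 arrays, so no fold is given.

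Counted by gene, with the brighter transcript where there are 2, 8 of the 9 genes were tested in limma, SNTB1 being the other. In OF against YF 4 were higher and 4 lower, with a median log2 difference of 0.01, beside 0.01 over all 19755 transcripts, of which 51.7% were higher. The median of the 8 was 0.26 without OF 0245. It was -0.10 without OF 0234 and -0.11 when blocked on slide, each with 3 of 8 higher. DTNA and SGCA were the genes past 1.5-fold, and SGCA fell under it without OF 2258. In contemporary cows against YF 4 were higher and 4 lower, with a median of 0.01, or -0.13 without contemporary cow 1128, beside -0.02 over all transcripts and 0 past 1.5-fold. Against OF, 4 were higher and 4 lower, with a median of -0.17, or -0.40 without OF 0245, beside -0.04, and DTNA, DMD and SGCA were lower by over 1.5-fold. SGCA fell under that fold without OF 2258, at -0.09, and DMD without contemporary cow 1129, at -0.47, or without OF 0233, at -0.49. DMD was also under it with array weights, at -0.43, and with contemporary cow 1111 included, at -0.40.

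**Figure D4:**
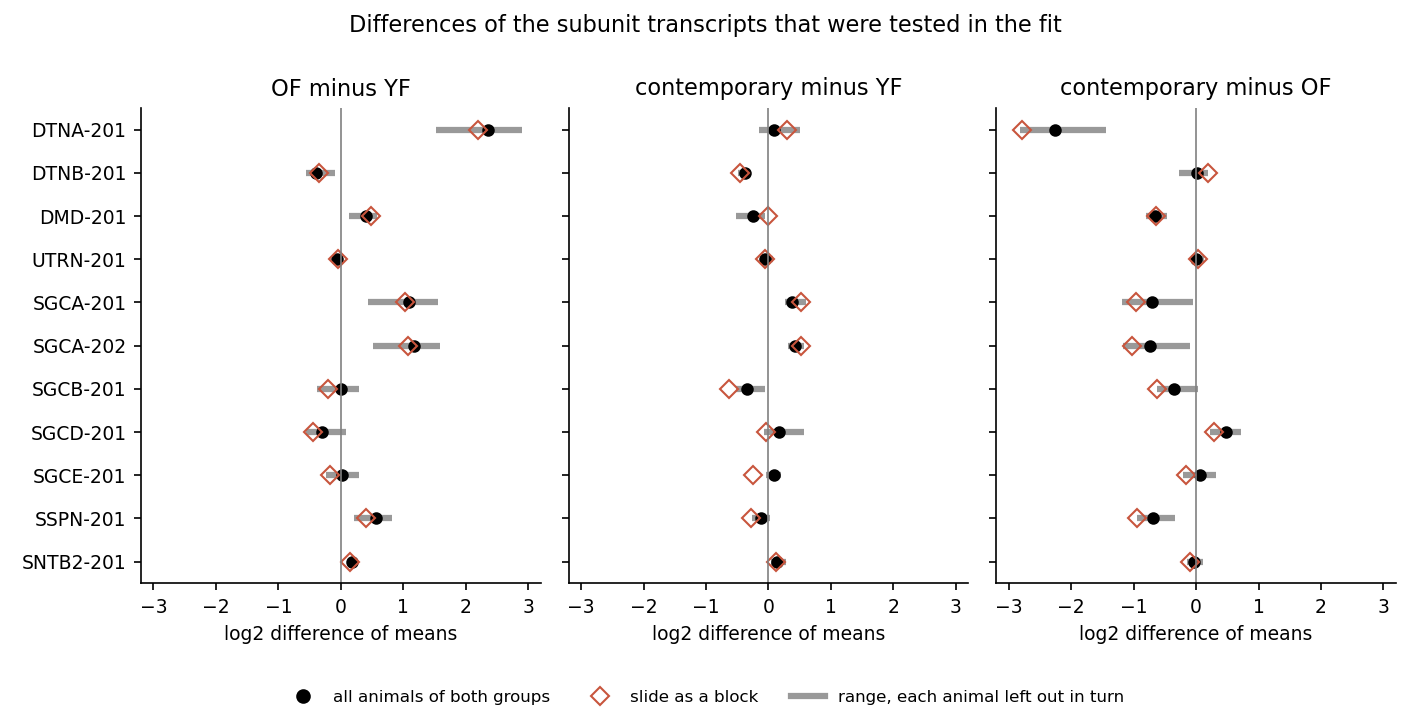
Log2 difference of group means for 11 subunit transcripts well above background on every array of a group, with black circles for all animals, diamonds for the fit with the slide as a block, and grey bars for the range when each animal was left out in turn. DTNA-201 lies at 2.36 for OF minus YF and at 0.09 for contemporary minus YF.

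Sarcospan, encoded by SSPN, was -0.18 ± 0.79 in OF (SD, n = 4) and -0.74 ± 0.30 in YF (SD, n = 4), 0.57 higher in OF, with OF 2258 the highest of all at 0.88. Without OF 2258 the difference was 0.21, and it was -0.05 within slide 1, 0.66 within slide 2 and 0.41 when blocked on slide. The syntrophin gene SNTB2 differed between OF and YF by 0.18 (0.12 without YF 1127). DAG1, which encodes dystroglycan, and DRP2 had a probe well above background on 8 and 6 of the 11 arrays and were not tested, and SNTG1 had 0 such arrays. SGCZ and SNTG2 were not found on the array by symbol. For SSPN, contemporary cows differed from YF by -0.13 (limma adjusted p above 0.99), or 0.03 without YF 1069, and from OF by -0.69 (limma adjusted p 0.912), or -0.34 without OF 2258. SNTB2 differed by 0.14 from YF (0.29 without contemporary cow 1128) and by -0.04 from OF (0.11 without 1128), with limma adjusted p above 0.98 for both.

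Dystroglycan binds laminin only when it carries sugars built by a set of enzymes, listed here as 18 genes, all on the array. Of the 17 tested, 8 were higher and 9 lower in OF than in YF, with a median of -0.0037 (-0.06 without YF 1069), and 0 moved by 1.5-fold. In contemporary cows 9 were higher and 8 lower than in YF and 11 higher and 6 lower than in OF, with medians of 0.0008 and 0.02 (-0.07 without YF 1069 and 0.06 without contemporary cow 1068), 0 past 1.5-fold and 0 called by limma or FCROS in either, against 4.23% and 5.40% of all transcripts called by FCROS. Limma called 0% of all transcripts in both.

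The partners of the complex, 14 genes of laminin, caveolin, filament and related proteins, were all on the array, and 12 were tested. In OF against YF 9 were higher and 3 lower, with a median of 0.32 that was 0.12 without OF 2258, 0.11 without OF 0245, 0.19 without YF 1069, 0.35 when blocked on slide, -0.07 within slide 1 and 0.25 within slide 2. Those past 1.5-fold were FLNC (filamin C) at 0.94, SYNC (syncoilin) at 0.85, CAV1 (caveolin-1) at 0.69 and HSPG2 (perlecan) at 0.63, each with 2 of 4 OF above all YF. Without OF 2258, 1 of the 12 was past 1.5-fold. SYNM and CAV3, each with a probe well above background on 4 of the 11 arrays, were not tested, and no fold is given. In contemporary cows 3 were higher and 9 lower than in YF, with a median of -0.07 (0.004 without contemporary cow 1068), and 3 higher and 9 lower than in OF, with a median of -0.33 (-0.13 without OF 2258, -0.09 with 6 of 12 higher without contemporary cow 1129, and -0.28 when blocked on slide).

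By a rule on likeness, the level of DTNA-201 over the 11 arrays was set against 17592 transcripts of other named genes. The arrays are shared by all of them, and the values are a description. The 10 most alike were SLC4A7 (r 0.972), ASB2 (0.970), CNN1 (0.968), CABLES2 (0.967), SRCAP (0.965), MYLK (0.964), C1QL3 (0.964), KLHL33 (0.963), SAPCD1 (0.961) and TAGLN (0.960). CNN1, MYLK and TAGLN encode the smooth muscle proteins calponin, myosin light chain kinase and transgelin. Without OF 2258 and OF 0234, the arrays farthest from the median of DTNA-201, the r of the 10 lay between 0.621 for TAGLN and 0.817 for SRCAP over 9 arrays, and within slide 2 between 0.96 and 0.99 over 8 arrays. An r over 0.9 was reached by 119 transcripts.

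The genes of the complex varied widely in their likeness to DTNA-201. DTNA-202 had an r of 0.947 (0.675 without the 2 farthest arrays), SGCA-202 0.90 (0.183) and SSPN 0.862 (0.144). DTNB had -0.744 (-0.548). The likeness of SGCA and SSPN rested on OF 2258 and OF 0234. UTRN changed sign, from -0.270 to 0.798, and DMD went from 0.287 to 0.627. The r of SGCA-201 (0.868 to -0.028) and SGCB (0.634 to -0.130) turned from positive to negative. That of SGCE (0.538 to -0.397) and SGCD (0.096 to -0.537) did so too.

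Of a list of 17 smooth muscle genes, 15 were found on the array by symbol and all 15 were tested. ACTG2 and MYOCD were not found by symbol and may be among the unnamed transcripts, and the paper reports ACTG2 from these arrays. The defining markers among the 15, MYH11, CNN1 and DES, were well above background on every array. The summed level of the 15, in multiples of the 75th percentile, was 45.3 in YF 1069, 38.1 in YF 1070, 82.1 in YF 1072 and 41.3 in YF 1127. OF 0233 had 41.1, 0234 had 392, 0245 had 67.3 and 2258 had 1101. In contemporary cows it was 61.2 in 1068, 42.5 in 1128 and 49.1 in 1129. The animals far above the others were again OF 2258 and OF 0234, and the highest YF for this sum, 1072, was also the highest YF for DTNA-201. The brightest signal in the sum was that of ACTA2, apart from MYL9 in YF 1127 and OF 0233. Here and for the lists below, signals of different probes do not rank genes by abundance.

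Over the 11 arrays the r with DTNA-201 was between 0.859 and 0.968 for 14 of the 15 smooth muscle genes and 0.372 for MYL9. Without OF 2258 and OF 0234 it was between -0.291 for MYL9 and 0.732 for CNN1, with -0.0438 for TPM1 and 0.0405 for CALD1, and it was over 0.5 for 7 of the 15. The r of every one of these genes was lower without those animals, to an unequal degree.

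**Figure D5:**
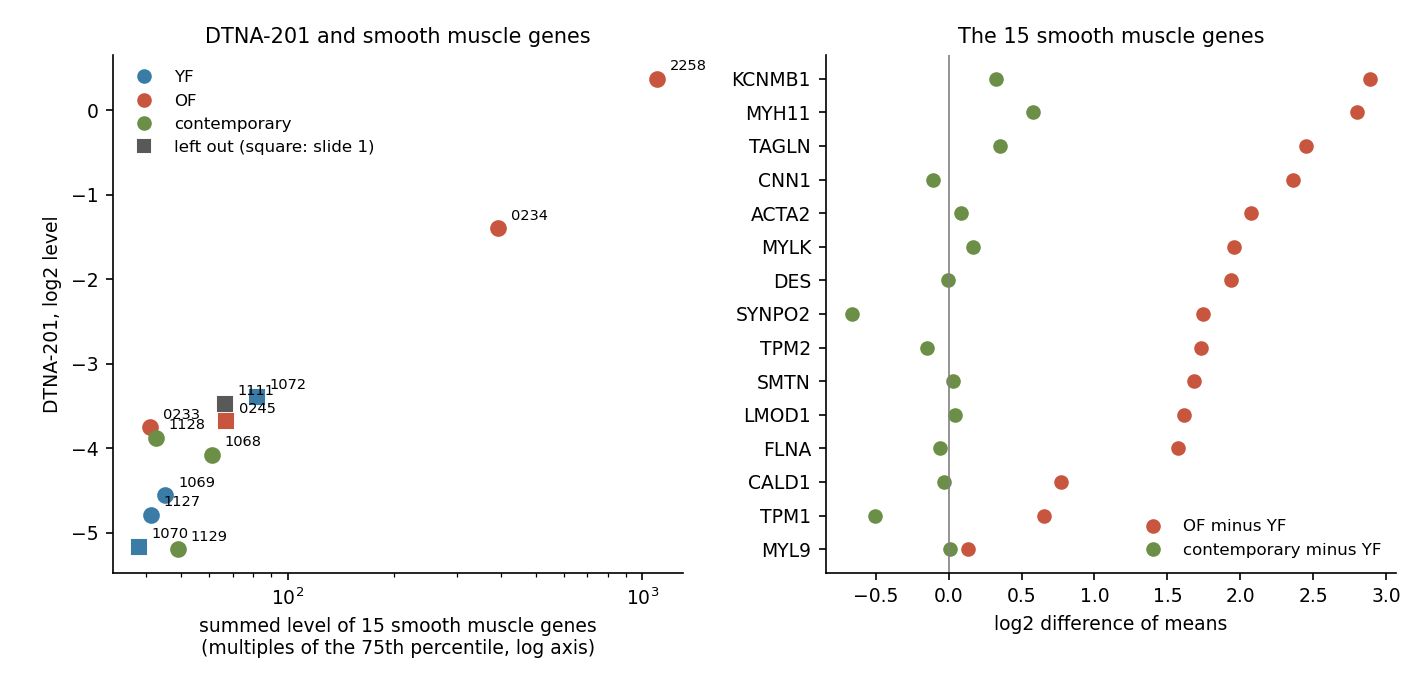
Left, DTNA-201 level (log2) against the summed level of 15 smooth muscle genes (multiples of the 75th percentile, log axis) in each of the 12 animals, with squares for slide 1. Right, log2 difference of means of each of the 15 genes for OF minus YF and contemporary minus YF. OF 2258 (sum 1101) and OF 0234 (392) lie apart from all other animals, whose sums are between 38.1 and 82.1.

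All 15 smooth muscle genes were higher in OF than in YF, 14 of them by over 1.5-fold, with a median difference of 1.75 beside 0.01 over all transcripts tested. The median was 0.87 without OF 2258, with 14 of 15 higher, 1.54 when blocked on slide, 0.10 within slide 1 (1 OF) and 2.53 within slide 2. The largest was KCNMB1 at 2.89 and the smallest MYL9 at 0.13. The brighter transcript annotated as MYL9 lies on chromosome 24, and the dimmer, on chromosome 13, gave 1.56. In contemporary cows 8 of the 15 were higher and 7 lower than in YF, with a median of 0.01 (-0.21 without YF 1127, 0.15 when blocked on slide). Against OF 15 of 15 were lower, with a median of -1.88 that was -1.02 without OF 2258 and -2.42 when blocked on slide. In that comparison FCROS called 4 of the 15 beside 5.40% of all transcripts, and limma called 0 beside 0%. The part of smooth muscle in the DTNA values was not tested.

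The defining skeletal muscle markers MYH1, MYH2 and CKM were not well above background on any array, 9 of that list's 10 genes being on the array, and the summed level of the 9 lay between 0.323 and 2.08, highest in OF 2258, where MB, for myoglobin, made up 77.6% of it. MB was 1.28 higher in OF than in YF, the only gene of that list past 1.5-fold and no longer past it without OF 2258, and of the 4 tested 2 were higher and 2 lower. For the tissue itself, the defining markers of epithelium (EPCAM, CDH1, KRT8) and stroma (PDGFRA, HAND2, DCN) were well above background on every array. The summed level of the 10 epithelial genes was 13.7 in OF 2258 and 24.4 in YF 1069, and between 54.5 and 110 in the other 9 animals used. CLDN3 had the brightest signal in all but 1128, where EPCAM had it. OF 2258 was thus the lowest animal for epithelial genes and the highest for smooth muscle genes and DTNA. The 8 stromal genes summed to between 130 in OF 0233 and 330 in YF 1069, with COL3A1 the brightest in signal.

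The summed levels of the other lists overlapped between OF and the other animals. All 10 endothelial genes were on the array and summed to between 7.44 and 20.7, with EMCN the brightest in signal. The 7 pericyte genes, 6 of them tested, summed to between 2.59 and 5.94, highest in OF 2258, with KCNJ8 or MCAM the brightest in signal. The 5 nerve and Schwann cell genes summed to between 1.19 in OF 2258 and 3.98 in YF 1127, with S100B the brightest in signal. The defining markers of these 3 lists were well above background on every array.

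By list, the median of OF minus YF was -0.26 for epithelium, with 2 of 10 genes higher, but 0.43 without OF 2258, -0.68 without YF 1069, 0.35 within slide 1, -0.09 within slide 2 and 0.03 when blocked on slide. It was -0.29 for stroma, with 0 of 8 higher, and -0.04 without YF 1069. For endothelium it was 0.16 (7 of 10 higher, -0.07 without YF 1127), for pericyte genes -0.10 (2 of 6 higher, -0.44 without YF 1127, 0.07 without YF 1069), for nerve -0.02 (2 of 5 higher, 0.35 without OF 2258) and for skeletal muscle 0.13 (0.46 without OF 0233).

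A block for slide gave -0.39 for stroma, 0.19 for endothelium, -0.06 for pericyte, 0.04 for nerve and 0.16 for skeletal muscle genes. In the same order, slide 1 gave -0.43, -0.02, -0.59, 0.66 and 0.04, and slide 2 gave -0.33, 0.40, 0.08, -0.38 and 0.12. The nerve list thus had opposite signs on the slides, as did the pericyte, endothelial and epithelial lists.

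Against YF, contemporary cows had a median of 0.06 for epithelium (-0.38 without YF 1069), 0.19 for stroma (0.07 without YF 1127) and 0.43 for endothelium, with 10 of 10 endothelial genes higher (0.18 without contemporary cow 1068). The medians were 0.23 for pericyte genes (6 of 6 higher, 0.05 without YF 1127), -0.07 for nerve (-0.55 without contemporary cow 1129, 0.34 without 1128) and 0.21 for skeletal muscle (0.04 without YF 1127). Limma called 0 genes of these lists, and FCROS called 1 of 10 endothelial and 2 of the 7 pericyte genes on the array as higher, beside 4.23% of all transcripts. Blocked on slide, the 6 medians were 0.42, 0.12, 0.60, 0.22, -0.50 and 0.21 in the order given.

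Against OF the medians were 0.30 for epithelium (-0.37 without OF 2258), 0.50 for stroma, 0.27 for endothelium (0.50 without contemporary cow 1128), 0.43 for pericyte, -0.17 for nerve (-0.42 without contemporary cow 1129, 0.13 without 1128) and 0.08 for skeletal muscle genes (-0.22 without OF 0233). Blocked on slide they were 0.57, 0.38, 0.34, 0.28, -0.04 and 0.13. FCROS called 2 of the 7 pericyte genes as higher and 1 of 5 nerve genes as lower, beside 5.40% of all transcripts, and limma called 0 beside 0%. The part of these cell types in the DTNA values was not tested.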

How the data were processed

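The authors deposited, for each of 12 arrays, the Cy-3 intensity of every spot from Agilent Feature Extraction 10.7.3.1, corrected for background and not normalised between arrays, and flags for spots well above background, saturated or outlying. Log2 of the processed intensity minus the 75th percentile of the array was used. Control spots (1319) and the 66 probes that carried an outlier mark were left out, 61333 probes were kept, spots and then probes of a transcript were averaged, and 26323 transcripts resulted, of which 12774 were named through RefSeq accessions, 9182 by the array's symbol and 4367 not at all. Positions are those of the array annotation on UMD3.1.

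Limma 3.58.1 in R 4.3.3 (lmFit, eBayes, two-sided, Benjamini-Hochberg at 0.05) was fitted to the groups compared, on transcripts that at least 1 probe detected above background throughout 1 of the groups. FCROS used f-values beyond 0.025 and 0.975, a trim of 0.25 and a fold change of 1.5 from arithmetic means, on all transcripts. Both tools were tested on simulated data, in which FCROS also made calls where no transcript was changed. Tables and plots used Python 3.11.15, pandas 2.3.3, numpy 2.4.6 and matplotlib 3.10.9.

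The members and lists were chosen with earlier results of these data known. Genes named are all member transcripts, further subunits, partners past 1.5-fold in OF against YF, and the 10 transcripts most like DTNA-201 by Pearson r. A gene with several transcripts is led by the one with the highest mean signal. Single genes named from the marker lists for a high or low value, MB, KCNMB1 and MYL9 included, and UTRN as the least variable member, were singled out after their values were seen. Alternatives were quantile normalisation, normexp with offset 50, median centring, the brightest probe, no filter on dim probes, blocking on slide, a single fit of all 3 groups, array weights, slide 2 alone (added after seeing the data), contemporary cow 1111 included, limma in place of FCROS and the reverse, and each animal left out in turn. Some items are withheld and are not reported here.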

Additional observations from a re-analysis of the deposited data

Results flagged for a closer look

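Within groups of 4 animals, a value stands out when the gap from the highest or lowest animal to its neighbour takes up most of the group's range. Of 24 groups examined, 2 had such a value, and chance gives about 1 in 20 groups. For SNTB1 in YF the gap was 0.886 of the range, with YF 1069 lowest at -8.75, but this transcript was not well above background on any array. For the summed level of the 15 smooth muscle genes in YF the gap was 0.836 of the range, with YF 1072 highest at 82.1. That sum is on a linear scale, unlike the transcript levels, which are log2, and the share depends on the scale.

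Contemporary cow 1111 was not used in the main comparisons and entered only the alternative that included it. Of the 11 transcripts, 4 that were well above background stood above all YF in this animal: DMD-201 at 1.08 against a highest YF of 0.85, UTRN-201 at -3.12 against -3.2, SGCA-201 at -2.63 against -2.97, and SGCA-202 at -2.57 against -2.95. SGCA-201 and SGCA-202 share most of their probe sequence and are not independent. Below all YF lay SGCB-201, at -2.61 against a lowest YF of -2.41, and SGCE-201, at -0.26 against 0.04. The share of all transcripts outside the YF range in this animal was not computed, so nothing is read from these counts. Nothing was tested on this single animal.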

How the results depend on the processing

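Between OF and YF, 178 of 180 alternative values of the 11 transcripts moved by less than the spread between animals. In these alternatives DTNA-201 lay between 1.53 and 3.08. Slide 1 alone, with 1 OF, was not among them and gave 0.60 for DTNA-201. The spread between animals is wide, and smaller differences changed within it. With array weights, DMD went from 0.41 to 0.0044, DTNB from -0.40 to -0.12, SGCB from -0.0004 to 0.46, SGCD from -0.31 to 0.29 and SGCE from 0.02 to 0.65. With normexp, SGCD was 0.035 and UTRN 0.025 against -0.06. DTNA-202, above background on 1 YF array, has no difference given. SGCE was -0.17 with the slide as a block. FCROS called 548 transcripts with normexp and 1190 to 1555 with single animals left out, and limma in its place called 0 (478 at an unadjusted p under 0.05). The split of the 1300 calls, 757 higher and 543 lower, became 735 and 820 without YF 1072, 652 and 755 without YF 1069, and 693 and 745 without YF 1127. DTNA-202 and SNTB1, being dim, have no value with the slide as a block, in 1 fit of all groups or with array weights, and contemporary cow 1111 does not bear on OF and YF.

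For contemporary cows against YF, limma called 1 transcript with quantile normalisation, 2 with all 3 groups in 1 fit, 1 with array weights, 4 with contemporary cow 1111 and 0 to 1 with single animals left out. Against OF it called 26 with array weights, 2 with contemporary cow 1111 and 0 to 1 with single animals left out. FCROS in place of limma called 1113 and 1422, or 399 and 843 with normexp, so the FCROS shares over all transcripts depend on the background treatment too. With normexp, which changes low signals most, the measured DTNA-202 difference from OF was smaller than the bound of 3.54-fold, so that bound depends on the background treatment. The cause of these shifts was not tested.

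The signs that changed were 16 of 177 values against YF and 17 of 178 against OF, all of differences that no test called. Against YF, contemporary cow 1111 gave 0.0019 for DMD, 0.0066 for UTRN and -0.10 for SGCE. The slide as a block gave -0.040 for SGCD and -0.25 for SGCE, and slide 2 alone, an alternative chosen after seeing the data, the same -0.040 and -0.25. Leaving out single animals gave -0.16 to 0.50 for DTNA-201, -0.14 to 0.071 for UTRN, -0.078 to 0.57 for SGCD and -0.039 to 0.20 for SGCE. Against OF, normexp gave -0.071 for UTRN and -0.035 for SGCD, and array weights -0.27 for DTNB, -0.085 for SGCD and -0.28 for SGCE. SGCE was -0.17 with the slide as a block and on slide 2 alone, and -0.13 with contemporary cow 1111. Leaving out single animals gave -0.28 to 0.18 for DTNB, -0.077 to 0.13 for UTRN, -0.63 to 0.030 for SGCB and -0.20 to 0.31 for SGCE. The cause was not tested.

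The limits are 3 or 4 animals a group, DTNA and SGCA values in OF that rest on 2258 and 0234, age and parity that go together, contemporary cows of unknown age, and 1 used OF array on slide 1. DTNA-202, SGCD and SNTB1 are limited by signal over background: a DTNA-202 difference from contemporary cows has only a lower bound, 1.99-fold to 5.61-fold with single animals left out, and SNTB1 has none.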
